A study of Homo sapiens with 8 samples.

Results

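The genes described here encode glutathione transferases, aldehyde dehydrogenases and UDP-glucuronosyltransferases, enzymes that inactivate reactive or foreign molecules. They were chosen by gene symbol alone and number 57 of 61533 gene identifiers in the count tables. The 57 genes are 17 cytosolic or mitochondrial glutathione transferases (GST), 3 membrane-bound ones (MGST), 18 aldehyde dehydrogenases (ALDH), 9 glucuronosyltransferases of the UGT1A locus and 10 of family UGT2. A further 10 genes whose symbols had the same form were left out as pseudogenes, GSTT2 among them because RefSeq lists it as one. Relatives with other symbols, such as ALDH2, are no members.

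RNA was measured in 8 libraries of 2 human carcinoma lines, CAL27 (a squamous cell carcinoma of the tongue) and A431 (an epidermoid carcinoma). Each line received NEDD8i, an inhibitor of the pathway of the ubiquitin-like protein NEDD8, or its solvent DMSO for 16 h. The 4 groups were CAL27 with NEDD8i, CAL27 with DMSO, A431 with NEDD8i and A431 with DMSO, with 2 libraries each. The labels list no genetic change in either line, and each is a single established line. The sources used here name neither the inhibitor's compound nor its dose. They also leave unstated whether both libraries of a group stem from independent cultures, so each p-value reflects the spread among these samples alone, possibly a technical one. In such bulk RNA, fewer cells of a type and less RNA per cell cannot be told apart.

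Glutathione transferases join the tripeptide glutathione to electrophiles, aldehyde dehydrogenases oxidise aldehydes to acids, and glucuronosyltransferases add glucuronic acid from UDP-glucuronate. Several genes of these families are known to carry antioxidant response elements, the DNA sites that the transcription factor NRF2 binds with a small MAF partner. NRF2 is normally marked for destruction by KEAP1 with the cullin CUL3, a ligase that works only when NEDD8 is attached to its cullin. The comparisons below ask how the RNA of these enzymes changed under NEDD8i, and a last one sets the lines side by side under DMSO alone.

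The libraries held 49037868 to 62509817 counts, of which the 57 genes took 0.252% to 0.335%. Levels are CPM, counts scaled to a common library size with TMM factors. Changes are on the log2 scale, NEDD8i over DMSO, with an approximate standard error from the edgeR quasi-likelihood test. "Rose" and "fell" are used only where that test gave an adjusted p under 0.05 over all 18738 genes tested. Summed CPM of 8 squamous epithelial markers was 13558 to 14150 with NEDD8i and 12762 to 12808 with DMSO in CAL27. In A431 the sum was 9462 to 9777 with NEDD8i and 8473 to 8516 with DMSO, and all 8 had counts in every group. Single markers differed in both directions. In CAL27 TP63 had 123 and 109 CPM with NEDD8i and 522 and 529 CPM with DMSO. KRT17 there had 2769 and 2875 CPM with NEDD8i and 1141 and 1154 CPM with DMSO. Of 5 leukocyte markers 4 had 0 counts in each group, with a summed level of at most 0.167 CPM. The hepatocyte genes ALB, APOA1, TTR and CYP3A4 had 0 counts in all 8 libraries, and the remaining gene of the list, SERPINA1, stood at 0.765 to 11.1 CPM. Fibroblast markers summed to 6.48 to 10.8 CPM with NEDD8i and 20.8 to 24.1 CPM with DMSO in CAL27, and to 17.6 to 18.4 CPM with NEDD8i and 35.4 to 38.96 CPM with DMSO in A431. COL3A1 had 0 counts in both CAL27 groups and COL1A2 in both A431 groups. Endothelial markers summed to 10.3 to 10.7 CPM with NEDD8i and 5.95 to 6.63 CPM with DMSO in CAL27, and to 5.22 to 5.56 CPM with NEDD8i and 19.6 to 21.9 CPM with DMSO in A431, with KDR at 0 counts in every group. The part of either list in the results was not tested.

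Of the 57 genes 37 passed the filter on low counts and were tested. They were 11 of 17 GST, 2 of 3 MGST, 17 of 18 ALDH, 6 of 9 UGT1A and 1 of 10 UGT2 genes. The 20 others had at most 26 counts over all 8 libraries, and 11 had none. GSTA1, GSTA2, GSTA3 and GSTA5, all of the alpha class, had 0 counts in every library, as did GSTT4, UGT2A1, UGT2A2, UGT2A3, UGT2B4, UGT2B10 and UGT2B11. Reads that matched several genes or places were not counted, so 0 counts need not mean that no RNA was present. UGT2A2 covers 70.5% of the exonic bases of UGT2A1, and UGT2A1 covers 95.6% of those of UGT2A2. MGST1 had 12 counts, all in CAL27 DMSO replicate 2, and ALDH1A2, which makes retinoic acid in the embryo, had 25 counts, all in the A431 DMSO libraries. GSTM5 had 26 counts over the 8 libraries. A total of 0 counts in a library allows up to 3, which was 0.048 to 0.0612 CPM, a limit that covers counting error only. Mates of a pair were each counted, so a floor of 3 is too low and folds set against it are no firm bounds. Exact binomial intervals given below are too narrow for the same reason.

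Under NEDD8i the 37 tested genes moved in both directions. In CAL27, 9 rose and 18 fell, and in A431, 9 rose and 13 fell. The called share was 27 of 37 in CAL27, where 49.6% of all genes tested were called, and 22 of 37 in A431, where 43.6% of all were. Genes called higher were 23.2% of all tested in CAL27 and 22.5% in A431, and genes called lower were 26.4% and 21.1%. The median log2 change of the 37 was -0.45 in CAL27 and -0.14 in A431, beside medians of -0.04 and -0.01 over all genes tested. UGT1A7, UGT1A8 and UGT1A10 had 0 counts in every CAL27 library, and ALDH8A1 and UGT2B7 in every A431 library. They could not be called in that line, but stand in the 37 and in its median with a change of 0. A called change of at least 2-fold was seen for 12 of the 37 in CAL27, beside 18.7% of all genes tested, and for 7 in A431, beside 13.4%. Of 17 tested aldehyde dehydrogenases 3 rose and 12 fell in CAL27, and 2 rose and 9 fell in A431. The 11 tested GST genes, the mitochondrial GSTK1 included, split, with 4 up and 5 down in CAL27 and 6 up and 2 down in A431. These shares were not tested against the background.

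**Figure D1:**
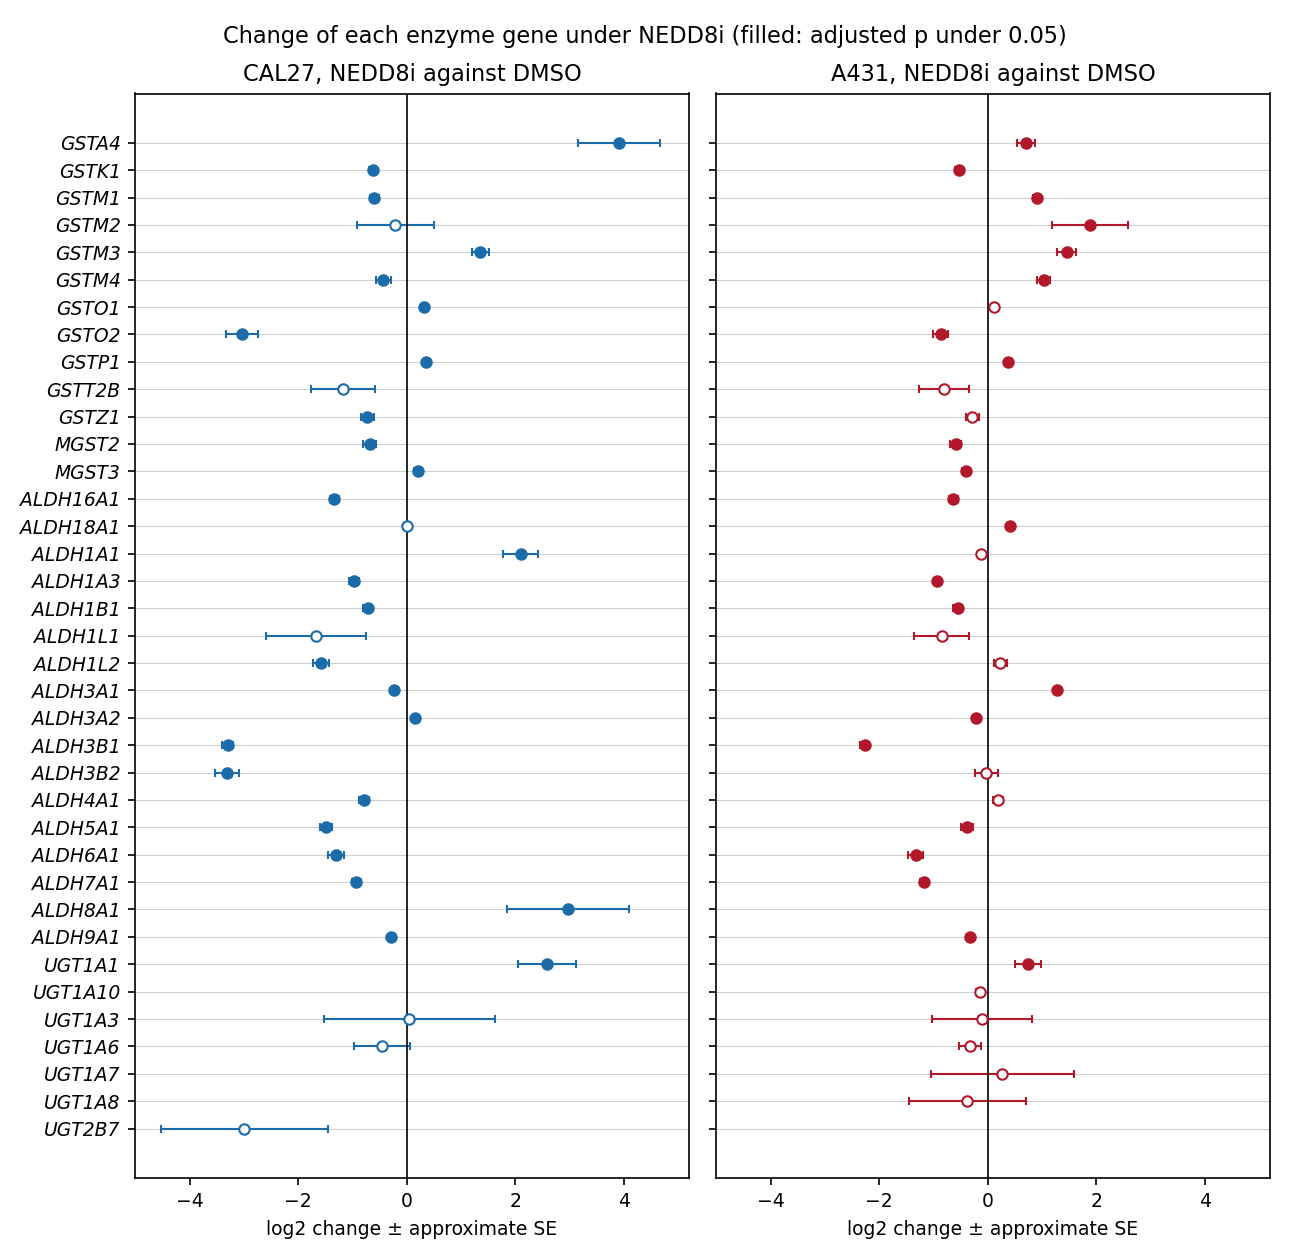
Log2 change with NEDD8i over DMSO (horizontal axis) for the 37 tested genes, in CAL27 (left) and A431 (right). Points are fitted changes, bars approximate standard errors from 2 libraries a group, filled points have an adjusted p under 0.05, and no point is drawn where the 2 groups of a line held at most 3 counts. ALDH3B1 lies at -3.30 in CAL27 and -2.26 in A431, while ALDH3A1 lies at -0.23 and 1.28.

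Between the lines, 11 genes fell in both (GSTK1, GSTO2, MGST2, ALDH1A3, ALDH1B1, ALDH3B1, ALDH5A1, ALDH6A1, ALDH7A1, ALDH9A1 and ALDH16A1) and 4 rose in both (GSTP1, GSTM3, GSTA4 and UGT1A1). Of all genes tested 12.8% fell in both lines and 13.3% rose in both. Each line had its own DMSO libraries, so these comparisons share no controls. Calls were opposite for 5 genes, beside 4.99% of all genes tested: GSTM1, GSTM4 and ALDH3A1 fell in CAL27 and rose in A431, and ALDH3A2 and MGST3 rose in CAL27 and fell in A431. The CAL27 calls of GSTM4, ALDH3A1, ALDH3A2 and MGST3 were lost in some fits that left out a library. Calls in CAL27 with none in A431 were rises of ALDH1A1, ALDH8A1 and GSTO1 and falls of ALDH1L2, ALDH3B2, ALDH4A1 and GSTZ1, and ALDH18A1 and GSTM2 were called higher in A431 with no call in CAL27. Of all genes tested 18.5% were called in CAL27 and not in A431, and 12.5% in A431 and not in CAL27. Among these 9 genes the difference of the responses was itself called for ALDH1A1, ALDH1L2, ALDH3B2, ALDH4A1 and ALDH18A1, and not for ALDH8A1, GSTO1, GSTZ1 and GSTM2. Over all 37 genes the difference, CAL27 minus A431, was called for 16, of which 5 were positive and 11 negative. Of all genes tested 34% were called for it, 14.2% positive and 19.8% negative.

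The mu-class glutathione transferases lie together on chromosome 1, and GSTM1 and GSTM4 fell in CAL27 and rose in A431 while GSTM3 rose in both. Their genes GSTM4, GSTM2, GSTM1 and GSTM5 point one way and GSTM3, at the end of the group, points the other way. GSTM1 (ENSG00000134184.13, chromosome 1, 109687817 to 109708685, GRCh38), which conjugates many electrophiles and is missing from many human genomes, had 7.36 and 6.65 CPM with NEDD8i and 10.2 and 10.9 CPM with DMSO in CAL27. In A431 it had 129.9 and 126 CPM with NEDD8i, against 69.8 and 66.2 CPM with DMSO. The groups did not overlap in either line, but NEDD8i libraries were the lower ones in CAL27 and the higher ones in A431. GSTM1 fell by 0.59 ± 0.09 in CAL27 and rose by 0.91 ± 0.07 in A431 (edgeR adjusted p = 1.96e-05 and 8.61e-09), and the difference of -1.50 ± 0.11 passed (edgeR adjusted p = 1.57e-08).

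GSTM4 (chromosome 1, 109656099 to 109674836), a close copy of GSTM1, had 3.79 and 4.48 CPM with NEDD8i and 6.41 and 4.80 CPM with DMSO in CAL27. In A431 the values were 55.9 and 51.4 CPM with NEDD8i and 26.5 and 25.9 CPM with DMSO. It rose by 1.03 ± 0.12 in A431, 2.05-fold, with both NEDD8i libraries above both DMSO libraries. The change of -0.43 ± 0.14 in CAL27 was called (edgeR adjusted p = 0.0198), but not without CAL27 DMSO replicate 1 (-0.19) or CAL27 NEDD8i replicate 1 (-0.32). With only the 4 CAL27 libraries the change was -0.41 and was not called. The difference between the lines, -1.46 ± 0.18, was called in the fit of all 8 libraries and without each library in turn. GSTM2, whose enzyme also acts on dopamine-derived quinones, had 48 and 57 counts with NEDD8i and 22 and 9 counts with DMSO in A431. Its rise there of 1.89 ± 0.70 was lost without A431 DMSO replicate 2 (1.44), A431 NEDD8i replicate 1 (1.89), A431 NEDD8i replicate 2 (1.91) and CAL27 DMSO replicate 1 (1.89). It stood at 2.57 when A431 DMSO replicate 1 was left out.

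GSTM3 (ENSG00000134202.12, chromosome 1, 109733932 to 109741038, minus strand), the mu-class member known from testis and brain, rose in both lines. It had 29.2 and 33.5 CPM with NEDD8i, against 12.7 and 11.9 CPM with DMSO in CAL27, and 11.5 and 11.9 CPM with NEDD8i, against 5.27 and 3.22 CPM with DMSO in A431. NEDD8i libraries were above DMSO libraries in each line. The rises were 2.56-fold (log2 1.36 ± 0.16) in CAL27 and 2.74-fold (log2 1.45 ± 0.17) in A431, with edgeR adjusted p = 1.03e-06 and 2.19e-06. The difference between the lines was -0.10 ± 0.23 and did not pass. Exons of other genes cover 42.6% of the exonic bases of GSTM1, 7.02% of those of GSTM2 and 1.87% of those of GSTM4. These genes are near copies, reads shared between them were left out of the counts, and their separate values are uncertain.

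Promoter windows are shown for the mu-class genes whose changes differed and for GSTP1 and GSTA4, which rose in both lines. Each runs 5′ to 3′ on the strand of the gene, from 250 bases before to 50 bases after the start in RefSeq on GRCh38.p14. Capitals mark TGACNNNGC, the core of the antioxidant response element, searched on both strands.
GSTP1, chr11:67583562-67583861, plus strand: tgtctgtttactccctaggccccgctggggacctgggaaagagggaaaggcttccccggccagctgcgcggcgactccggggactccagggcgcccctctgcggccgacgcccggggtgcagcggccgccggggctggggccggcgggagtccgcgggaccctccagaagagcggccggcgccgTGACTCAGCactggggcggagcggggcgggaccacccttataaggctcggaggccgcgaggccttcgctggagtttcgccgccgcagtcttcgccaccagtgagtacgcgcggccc
GSTM1, chr1:109687567-109687866, plus strand: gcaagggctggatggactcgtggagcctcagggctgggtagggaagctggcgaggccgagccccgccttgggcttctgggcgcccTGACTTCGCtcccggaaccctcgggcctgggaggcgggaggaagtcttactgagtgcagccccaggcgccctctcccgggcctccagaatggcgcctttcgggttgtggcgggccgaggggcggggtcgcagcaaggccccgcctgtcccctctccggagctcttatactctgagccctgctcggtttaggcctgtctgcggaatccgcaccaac
GSTM4, chr1:109655849-109656148, plus strand: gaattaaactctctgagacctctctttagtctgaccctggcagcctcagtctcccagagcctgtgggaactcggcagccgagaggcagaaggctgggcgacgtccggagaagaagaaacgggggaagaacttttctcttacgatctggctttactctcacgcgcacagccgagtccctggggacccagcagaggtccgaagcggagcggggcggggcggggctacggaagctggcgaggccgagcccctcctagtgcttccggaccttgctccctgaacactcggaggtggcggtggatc
GSTM3, chr1:109740989-109741288, minus strand: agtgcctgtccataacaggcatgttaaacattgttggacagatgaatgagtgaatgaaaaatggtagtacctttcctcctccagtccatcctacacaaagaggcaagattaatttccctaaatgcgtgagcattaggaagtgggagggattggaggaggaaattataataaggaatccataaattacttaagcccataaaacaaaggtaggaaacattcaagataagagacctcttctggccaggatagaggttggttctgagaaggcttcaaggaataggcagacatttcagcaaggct
GSTA4, chr6:52995235-52995534, minus strand: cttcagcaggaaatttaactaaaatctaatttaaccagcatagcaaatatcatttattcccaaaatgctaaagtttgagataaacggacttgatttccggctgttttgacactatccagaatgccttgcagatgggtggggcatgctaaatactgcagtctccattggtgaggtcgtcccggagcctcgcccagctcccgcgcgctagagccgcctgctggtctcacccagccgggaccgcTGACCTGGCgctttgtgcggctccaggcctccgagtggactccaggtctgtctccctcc

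The windows of GSTP1, GSTM1 and GSTA4 each held 1 match, whose first base lay 66, 165 and 9 bases before the start. GSTP1 had the letters TGACTCAGC, GSTM1 TGACTTCGC and GSTA4 TGACCTGGC, all on the strand shown. The GSTM4 and GSTM3 windows held no match, nor did that of UGT1A1, which also rose in both lines and is not shown. RefSeq windows were found for 47 of the 57 genes, and 10 of these 47 genes (21.3%) held at least 1 match in any of their windows, beside 16.1% of all 27305 genes with a window. Of the 37 tested genes 30 had a window and 5 of them (16.7%) held a match, GSTO1 and UGT1A6 being the others. The core GCGTG, bound by the dioxin receptor AHR with ARNT, stood on either strand in windows of 16 of the 47 genes (34.0%), beside 40.6% of all genes with a window, and the GSTM4 and GSTM3 windows held 1 each. A match is a run of letters and not a measured site.

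GSTP1 (ENSG00000084207.18, chromosome 11, 67583742 to 67586656), the pi-class enzyme of many epithelia and carcinomas, rose in both lines. It had 1757 and 1789 CPM with NEDD8i, against 1374 and 1398 CPM with DMSO in CAL27. The A431 values were 1398 and 1353 CPM with NEDD8i and 1088 and 1030.4 CPM with DMSO. Both NEDD8i libraries lay above both DMSO libraries in each line, with rises of 0.35 ± 0.04 and 0.38 ± 0.04 (edgeR adjusted p = 2.91e-07 and 2.06e-07). The difference between the lines was -0.02 ± 0.05 and did not pass. GSTP1 counts alone made up more than any other member's, 53124 to 107137 in a library.

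GSTA4, an alpha-class enzyme that conjugates the lipid aldehyde 4-hydroxynonenal, was called higher in both lines. In CAL27 it had 22 and 10 counts with NEDD8i and 0 and 2 counts with DMSO. The ratio of CAL27 counts was 16.9, with a 95% exact binomial interval of 4.31 to 145 for counting error only. Its rise was called in CAL27 (edgeR adjusted p = 0.00031), but the fitted value of 3.91 rests on 2 counts in the DMSO group. It became 6.95 without CAL27 DMSO replicate 2, which held both, 3.15 without CAL27 DMSO replicate 1 and 3.16 without CAL27 NEDD8i replicate 1. In A431 it rose to 24.6 and 24.8 CPM with NEDD8i, against 14.6 and 15.5 CPM with DMSO, a change of 0.71 ± 0.17 (edgeR adjusted p = 0.00191).

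The omega-class pair GSTO1 and GSTO2 lies 1.41 kb apart on chromosome 10 and moved unequally. GSTO2 (chromosome 10, 104268873 to 104304950), which reduces dehydroascorbate, fell to 0.167 and 0.418 CPM with NEDD8i, against 2.98 and 1.98 CPM with DMSO in CAL27. The CAL27 libraries with NEDD8i held only 9 and 25 counts of GSTO2. In A431 it had 23.0 and 23.5 CPM with NEDD8i and 41.5 and 43.2 CPM with DMSO. NEDD8i libraries were the lower ones in both lines, and GSTO2 fell by 3.03 ± 0.29 in CAL27 (edgeR adjusted p = 1.13e-07) and 0.87 ± 0.14 in A431, and the difference of -2.17 ± 0.34 passed. The CAL27 change was -3.85 and the difference -2.997 without CAL27 NEDD8i replicate 2. GSTO1, the omega enzyme that also removes glutathione from proteins, had 123 and 135 CPM with NEDD8i and 99.0 and 107 CPM with DMSO in CAL27, a rise of 0.33 ± 0.06. In A431 its change of 0.13 ± 0.06 did not pass in the fit of all 8 libraries (edgeR adjusted p = 0.0921). It passed with only the 4 A431 libraries and without either CAL27 NEDD8i library, and the difference of 0.20 ± 0.08 between the lines, uncalled with all libraries, passed under 7 alternatives.

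**Figure D2:**
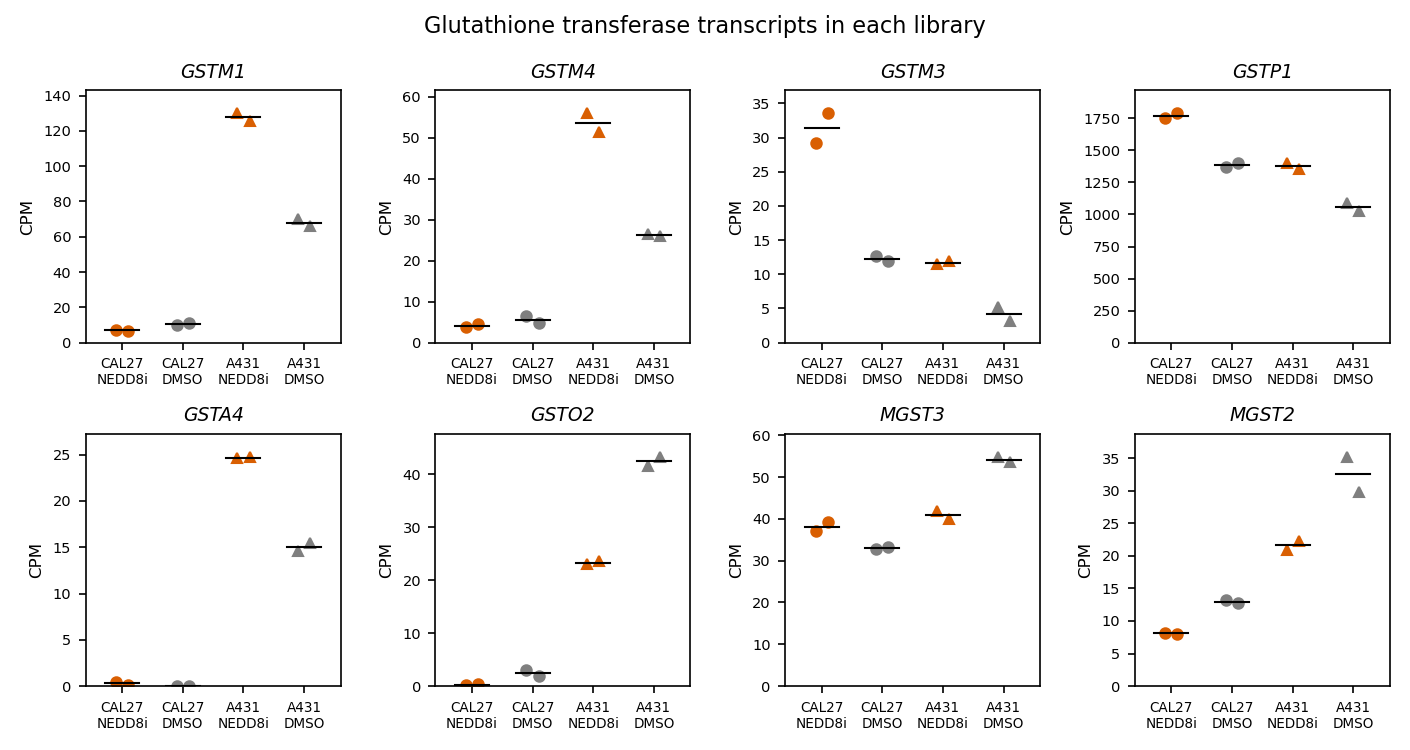
CPM (vertical axes, each from 0) of 8 glutathione transferase genes in each library, NEDD8i in orange and DMSO in grey, CAL27 as circles and A431 as triangles, with lines at the mean of 2. GSTM1 and GSTM4 are lower with NEDD8i in CAL27 and higher with it in A431, GSTM3 and GSTP1 are higher with it in both lines, and GSTO2 is lower with it in both.

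The remaining transferases changed by less than 2-fold where called. GSTK1, the kappa enzyme of mitochondria and peroxisomes, had 36.2 and 38.5 CPM with NEDD8i and 59.9 and 55.1 CPM with DMSO in CAL27. Its A431 values were 41.3 and 39.8 CPM with NEDD8i and 60.0 and 57.4 CPM with DMSO. GSTK1 thus fell by 0.62 ± 0.07 in CAL27 and 0.53 ± 0.07 in A431. GSTZ1, the maleylacetoacetate isomerase of tyrosine breakdown, fell in CAL27 (-0.72 ± 0.12) and had a change of -0.28 ± 0.12 in A431 that did not pass. GSTT2B, a theta-class enzyme, changed by -1.17 ± 0.59 in CAL27 and by -0.80 ± 0.47 in A431, and neither was called.

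Both tested membrane-bound transferases were called in each line. MGST2, which can make leukotriene C4, had 8.21 and 7.95 CPM with NEDD8i and 13.2 and 12.7 CPM with DMSO in CAL27. In A431 it stood at 20.9 and 22.3 CPM with NEDD8i and 35.2 and 29.8 CPM with DMSO. It fell by 0.68 ± 0.12 and 0.59 ± 0.11. MGST3, a glutathione-dependent peroxidase of membranes, had 37.1 and 39.2 CPM with NEDD8i and 32.9 and 33.3 CPM with DMSO in CAL27, and 41.9 and 39.97 CPM with NEDD8i and 54.8 and 53.6 CPM with DMSO in A431. It rose in CAL27 by 0.20 ± 0.07 and fell in A431 by 0.41 ± 0.07, and the difference of 0.61 ± 0.10 passed (edgeR adjusted p = 0.000178). The small CAL27 rise was lost without CAL27 DMSO replicate 1 or 2 or CAL27 NEDD8i replicate 2, at changes of 0.21, 0.23 and 0.17.

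Among the aldehyde dehydrogenases of lipid and aromatic aldehydes, ALDH3A1 rose in A431 and ALDH3B1 fell in both lines. ALDH3A1 (ENSG00000108602.18, chromosome 17, 19737984 to 19748393), an enzyme of cornea and stomach that oxidises aldehydes from lipid peroxidation, had 487 and 471 CPM with NEDD8i, against 196 and 199 CPM with DMSO in A431. Both NEDD8i libraries were above both DMSO libraries, a 2.43-fold rise (log2 1.28 ± 0.05, edgeR adjusted p = 1.27e-12). In CAL27 it had 12.02 and 11.3 CPM with NEDD8i and 14.1 and 13.1 CPM with DMSO, a change of -0.23 ± 0.06. That call was lost without CAL27 DMSO replicate 1 (-0.16), without CAL27 NEDD8i replicate 2 (-0.17) and with only the 4 CAL27 libraries (-0.20), while the difference of -1.51 ± 0.08 between the lines passed in every setting run.

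ALDH3A2, the fatty aldehyde dehydrogenase that is deficient in Sjögren-Larsson syndrome, lies 52.2 kb from ALDH3A1 on chromosome 17. It had 145 and 162 CPM with NEDD8i and 137 and 138 CPM with DMSO in CAL27. In A431 the values were 172 and 175 CPM with NEDD8i and 202 and 202 CPM with DMSO. It rose in CAL27 by 0.16 ± 0.05 and fell in A431 by 0.22 ± 0.05. The CAL27 call was lost without CAL27 DMSO replicate 1 (0.17) or CAL27 NEDD8i replicate 2 (0.08).

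ALDH3B1 (ENSG00000006534.17, chromosome 11, 68008578 to 68029276), which oxidises lipid-derived aldehydes at membranes, fell to 2.71 and 3.27 CPM with NEDD8i, against 28.5 and 30.6 CPM with DMSO in CAL27. In A431 it fell to 22.1 and 21.8 CPM with NEDD8i, against 104 and 106 CPM with DMSO. The groups were far apart in both lines, with falls of 9.83-fold in CAL27 and 4.80-fold in A431 (edgeR adjusted p = 4e-14 and 6.34e-13), and the difference of -1.04 ± 0.13 passed. Its relative ALDH3B2, on the same chromosome with 327 kb between them, had 1.23 and 1.54 CPM with NEDD8i and 13.4 and 14.1 CPM with DMSO in CAL27, a fall of 9.91-fold. In A431 ALDH3B2 had 5.69 and 4.28 CPM with NEDD8i and 5.80 and 4.27 CPM with DMSO, so that the groups overlapped (log2 -0.02 ± 0.20). The difference of -3.29 ± 0.30 passed (edgeR adjusted p = 1.9e-07). ALDH3B1 and ALDH3B2 are similar in sequence, and reads that matched both were not counted.

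**Figure D3:**
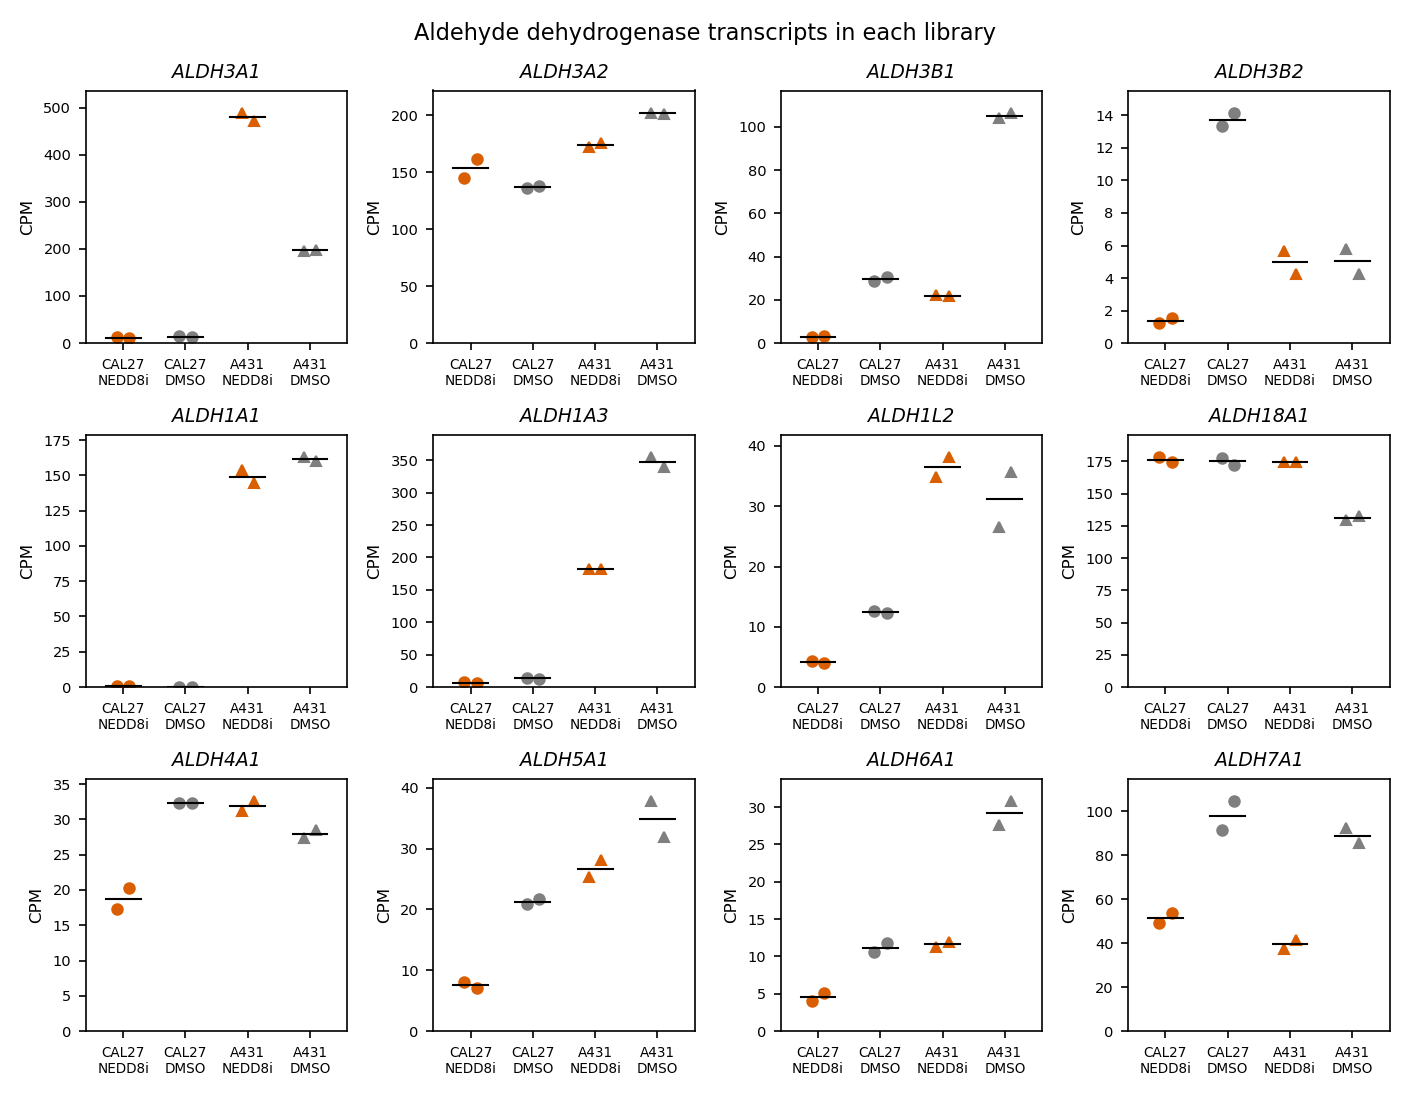
CPM (vertical axes, each from 0) of 12 aldehyde dehydrogenase genes in each library, NEDD8i in orange and DMSO in grey, CAL27 as circles and A431 as triangles, with lines at the mean of 2. ALDH3B1, ALDH6A1 and ALDH7A1 are lower with NEDD8i in both lines, ALDH3A1 is higher with it in A431, and ALDH3B2 is lower with it in CAL27 while its A431 groups overlap.

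The enzymes that make retinoic acid from retinal were ALDH1A3 and ALDH1A1 in these lines. ALDH1A3 (ENSG00000184254.17, chromosome 15, 100879831 to 100916626) fell in CAL27 to 7.30 and 6.15 CPM with NEDD8i, against 14.4 and 12.1 CPM with DMSO. In A431 it fell to 183 and 182 CPM with NEDD8i, against 354 and 340.3 CPM with DMSO. Both NEDD8i libraries were below both DMSO libraries in each line, by 0.98 ± 0.09 in CAL27 and 0.93 ± 0.06 in A431 (edgeR adjusted p = 7.97e-08 and 2.97e-09), and the difference of -0.05 ± 0.11 did not pass. Exons of other genes, the antisense ALDH1A3-AS1 among them, cover 35.8% of its exonic bases, and counting ignored strand. ALDH1A1, also used as a marker of stem-like carcinoma cells, had 42 and 32 counts with NEDD8i and 10 and 8 counts with DMSO in CAL27, a rise of 2.10 ± 0.32 at a level under 1 CPM (edgeR adjusted p = 2.68e-05). The A431 levels were 153 and 144 CPM with NEDD8i and 163 and 159.9 CPM with DMSO, a change of -0.12 ± 0.06 that did not pass. The difference of 2.22 ± 0.33 passed.

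Among the dehydrogenases of amino acid and GABA breakdown, ALDH5A1, ALDH6A1 and ALDH7A1 fell in both lines. ALDH7A1, the lysine-pathway enzyme, had 49.4 and 53.8 CPM with NEDD8i and 91.6 and 104 CPM with DMSO in CAL27. In A431 it had 37.3 and 41.6 CPM with NEDD8i and 92.2 and 85.5 CPM with DMSO. It fell by 0.93 ± 0.08 in CAL27 and 1.17 ± 0.08 in A431, and the difference of 0.24 ± 0.11 did not pass in the fit of all 8 libraries. It passed without A431 DMSO replicate 2 (0.31) or CAL27 DMSO replicate 2 (0.35).

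ALDH6A1, of valine and thymine breakdown, had 3.99 and 5.04 CPM with NEDD8i and 10.6 and 11.8 CPM with DMSO in CAL27. Its A431 values were 11.3 and 11.9 CPM with NEDD8i and 27.6 and 30.7 CPM with DMSO. The falls, 1.30 ± 0.14 and 1.33 ± 0.13, differed by 0.02 ± 0.19, which did not pass. ALDH5A1, the succinic semialdehyde dehydrogenase of GABA breakdown, fell in CAL27 to 8.14 and 7.05 CPM with NEDD8i, against 20.8 and 21.7 CPM with DMSO (log2 -1.49 ± 0.12). In A431 it had 25.4 and 28.1 CPM with NEDD8i and 37.7 and 31.9 CPM with DMSO, a change of -0.38 ± 0.11. The A431 call was lost without A431 DMSO replicate 1 (-0.25) or A431 NEDD8i replicate 1 (-0.31), and the difference of -1.11 ± 0.16 passed.

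Proline metabolism has an enzyme of each direction in this family. ALDH4A1, which breaks proline down, had 17.2 and 20.2 CPM with NEDD8i and 32.3 and 32.3 CPM with DMSO in CAL27. It stood at 31.2 and 32.5 CPM with NEDD8i and 27.4 and 28.6 CPM with DMSO in A431. ALDH4A1 fell by 0.78 ± 0.09 in CAL27 and had a change of 0.19 ± 0.09 in A431 that did not pass. ALDH18A1, which makes the precursor of proline, had 178 and 174 CPM with NEDD8i and 178 and 172 CPM with DMSO in CAL27, where the groups overlapped. In A431 it rose to 174 and 175 CPM with NEDD8i, against 129 and 133 CPM with DMSO, by 0.41 ± 0.05. The differences between the lines, -0.97 ± 0.13 for ALDH4A1 and -0.40 ± 0.07 for ALDH18A1, both passed (edgeR adjusted p = 1.73e-05 and 0.000119).

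ALDH1L2, the mitochondrial enzyme that oxidises 10-formyltetrahydrofolate, fell in CAL27 to 4.31 and 4.02 CPM with NEDD8i, against 12.6 and 12.3 CPM with DMSO (log2 -1.58 ± 0.14, edgeR adjusted p = 4.76e-08). In A431 it had 34.9 and 38.1 CPM with NEDD8i and 26.6 and 35.7 CPM with DMSO, groups that overlapped and a change of 0.23 ± 0.12 that did not pass. Without A431 DMSO replicate 2 the A431 change was 0.45 and passed. The difference of -1.81 ± 0.19 passed. ALDH1L1, its cytosolic relative, stood at or under 3.14 CPM in every library and was called in neither line.

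ALDH9A1, of carnitine synthesis, had 66.0 and 65.0 CPM with NEDD8i and 81.5 and 78.0 CPM with DMSO in CAL27, and 109.6 and 107 CPM with NEDD8i and 135 and 138 CPM with DMSO in A431. It fell by 0.28 ± 0.05 and 0.33 ± 0.05. ALDH1B1, a mitochondrial acetaldehyde enzyme, had 39.4 and 42.8 CPM with NEDD8i and 64.9 and 70.2 CPM with DMSO in CAL27, and 40.4 and 35.1 CPM with NEDD8i and 58.9 and 51.6 CPM with DMSO in A431, falls of 0.72 ± 0.09 and 0.55 ± 0.09. In both genes each NEDD8i library lay below both DMSO libraries of its line. ALDH16A1 had 16.1 and 16.0 CPM with NEDD8i and 39.4 and 41.2 CPM with DMSO in CAL27, a fall of 2.52-fold. In A431 its fall was smaller, at 45.5 and 40.7 CPM with NEDD8i and 70.5 and 62.7 CPM with DMSO, and the difference of -0.70 ± 0.12 passed. ALDH8A1, of tryptophan breakdown, had 43 and 44 counts with NEDD8i and 2 and 10 counts with DMSO in CAL27 and none in A431. It passed the low-count filter only through the CAL27 NEDD8i libraries, where it is high, so the filter favoured a rise. It is among the 9 rises and the 12 changes of at least 2-fold counted for CAL27. Its CAL27 rise (edgeR adjusted p = 0.0396) was lost without any 1 of the 4 CAL27 libraries, at changes of 2.34 to 4.30.

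The UGT1A genes share their last exons, from which poly(A)-primed reads mostly come, and reads there were left out because they fall in several genes. Exons of other genes cover 50.1% to 72.3% of the exonic bases of the 9 UGT1A genes, so their counts come from the parts that are unique to each. UGT1A10 (chromosome 2, 233636448 to 233773300), an enzyme of gut and upper airway epithelium, had 0 counts in all 4 CAL27 libraries. The A431 libraries held 113 and 107 CPM with NEDD8i and 129 and 113 CPM with DMSO. The A431 change of -0.14 ± 0.08 did not pass, except without A431 DMSO replicate 2 (-0.23). UGT1A6, which conjugates small phenols, had 16 and 4 counts with NEDD8i and 17 and 12 counts with DMSO in CAL27, groups that overlapped. Its A431 values were 11.99 and 11.6 CPM with NEDD8i and 14.4 and 15.2 CPM with DMSO, a change of -0.32 ± 0.21 that did not pass.

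UGT1A1, the bilirubin-conjugating enzyme, had 15 and 32 counts with NEDD8i and 3 and 5 counts with DMSO in CAL27. The A431 libraries had 10.3 and 9.68 CPM with NEDD8i and 7.11 and 4.79 CPM with DMSO. NEDD8i libraries were above DMSO libraries in both lines. It rose by 2.59 ± 0.54 in CAL27 (edgeR adjusted p = 0.000575) and by 0.75 ± 0.25 in A431. The A431 call was lost without A431 DMSO replicate 2 (0.49), A431 NEDD8i replicate 1 (0.71) or A431 NEDD8i replicate 2 (0.80). The difference of 1.84 ± 0.61 was lost without A431 DMSO replicate 1 (1.53), CAL27 DMSO replicate 1 (1.67) or 2 (2.10), or CAL27 NEDD8i replicate 2 (1.28). Summed over the 9 genes, UGT1A counts were 33 and 36 with NEDD8i and 24 and 18 with DMSO in CAL27, a rise of 0.79 ± 0.29 (edgeR adjusted p = 0.0302). This rise lies in the UGT1A1 counts given above. UGT1A6, with most of the other counts, had 16 and 4 with NEDD8i and 17 and 12 with DMSO. No other tested UGT1A gene was called in CAL27. The sum leaves out reads in the shared last exons and so does not give the output of the whole locus. In A431 the sum stood at 136 and 129 CPM with NEDD8i and 152 and 134 CPM with DMSO, a change of -0.11 ± 0.07 that did not pass (edgeR adjusted p = 0.248). UGT1A3, UGT1A7 and UGT1A8 stood under 1 CPM in every library and were called in neither line.

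Genes of neighbouring steps were taken from lists made by function, and those called with at least 2-fold in a line are named. Their counts stand beside 23.2% of all genes tested called higher and 26.4% lower in CAL27, and 22.5% higher and 21.1% lower in A431. Of 7 genes that supply UDP-glucuronate or remove glucuronides, 1 rose and 5 fell in CAL27 and 4 rose and 0 fell in A431. UGDH, which oxidises UDP-glucose to UDP-glucuronate, rose to 379 and 369 CPM with NEDD8i, against 62.2 and 67.6 CPM with DMSO in CAL27. In A431 it rose to 356 and 336 CPM with NEDD8i, against 65.5 and 66.3 CPM with DMSO. These are rises of 5.76-fold in CAL27 and 5.25-fold in A431 (edgeR adjusted p = 3.31e-16 and 9.4e-16), while the UGT1A sum in A431 had the change of -0.11 given above. The medians over the 7 genes were -0.39 in CAL27 and 0.21 in A431.

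Of 13 tested genes that export conjugates or process them to mercapturates, from a list of 21, 3 rose and 6 fell in CAL27 and 5 rose and 3 fell in A431 (medians -0.35 and 0.03). ABCC1 and ABCC3, exporters of glutathione and glucuronide conjugates, fell in CAL27 by 0.35 ± 0.05 and 0.68 ± 0.10 and rose in A431 by 1.22 ± 0.05 and 1.30 ± 0.09. ABCC2 rose in CAL27 (1.73 ± 0.30) and in A431 (0.98 ± 0.30, lost without A431 DMSO replicate 1, 0.94, or A431 NEDD8i replicate 2, 0.76). GGT6, of the gamma-glutamyltransferase family, fell in CAL27 (-1.49 ± 0.31) and rose in A431 (1.09 ± 0.29, lost without A431 NEDD8i replicate 1, 0.88). The peptidases LAP3 and CNDP2 fell, by 1.04 ± 0.06 and 1.20 ± 0.05 in CAL27 and 0.33 ± 0.06 and 0.95 ± 0.05 in A431. ACY3, which splits mercapturates, fell by 3.05 ± 0.51 in CAL27 and 1.37 ± 0.45 in A431. Its A431 call was lost without A431 DMSO replicate 1 (-0.999), A431 NEDD8i replicate 1 (-1.29) or A431 NEDD8i replicate 2 (-1.44).

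Of 23 tested genes of other conjugation and carbonyl-reducing steps, from a list of 28, 7 rose and 10 fell in CAL27 and 9 rose and 5 fell in A431 (medians -0.15 and 0.02). The quinone reductase NQO1 rose by 1.91 ± 0.04 in CAL27 and 1.63 ± 0.04 in A431, the prostaglandin reductase PTGR1 by 2.63 ± 0.05 and 2.78 ± 0.05, and the microsomal epoxide hydrolase EPHX1 by 1.13 ± 0.05 and 2.03 ± 0.05. The sterol sulfotransferase SULT2B1 rose by 2.82 ± 0.22 and 3.99 ± 0.20. The carbonyl reductases CBR1 and CBR3 rose by 1.11 ± 0.07 and 2.33 ± 0.20 in A431, as did NQO2 by 1.05 ± 0.07. In CAL27 the changes were 0.46 ± 0.07, which passed, for CBR1, and 0.28 ± 0.21 and 0.08 ± 0.07, which did not, for CBR3 and NQO2. The aldehyde oxidase AOX1 rose in CAL27 by 3.42 ± 0.18 and had a change of -0.33 ± 0.28 in A431 that did not pass. The soluble epoxide hydrolase EPHX2 fell by 2.995 ± 0.17 and 1.66 ± 0.12, CBR4 by 1.17 ± 0.18 and 0.85 ± 0.18, and SULT1A1, whose copies are near-identical, by 1.095 ± 0.23 in CAL27. AKR7A3, an aldehyde reductase at under 2 CPM in every library, fell by 2.15 ± 0.72 in CAL27 and 3.13 ± 0.74 in A431. It passed the low-count filter mainly through DMSO libraries, where it is higher, so the filter favoured a fall. Its CAL27 call was lost without CAL27 DMSO replicate 1 (-1.63), CAL27 NEDD8i replicate 1 (-2.08) or CAL27 NEDD8i replicate 2 (-2.23), and its A431 value was -4.14 without A431 NEDD8i replicate 2. ADH1C was called lower in CAL27 on 0 counts with NEDD8i and 8 with DMSO, 2.53-fold lower against a floor of 3 counts. That call was lost in 4 of 8 fits that left out a library.

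**Figure D4:**
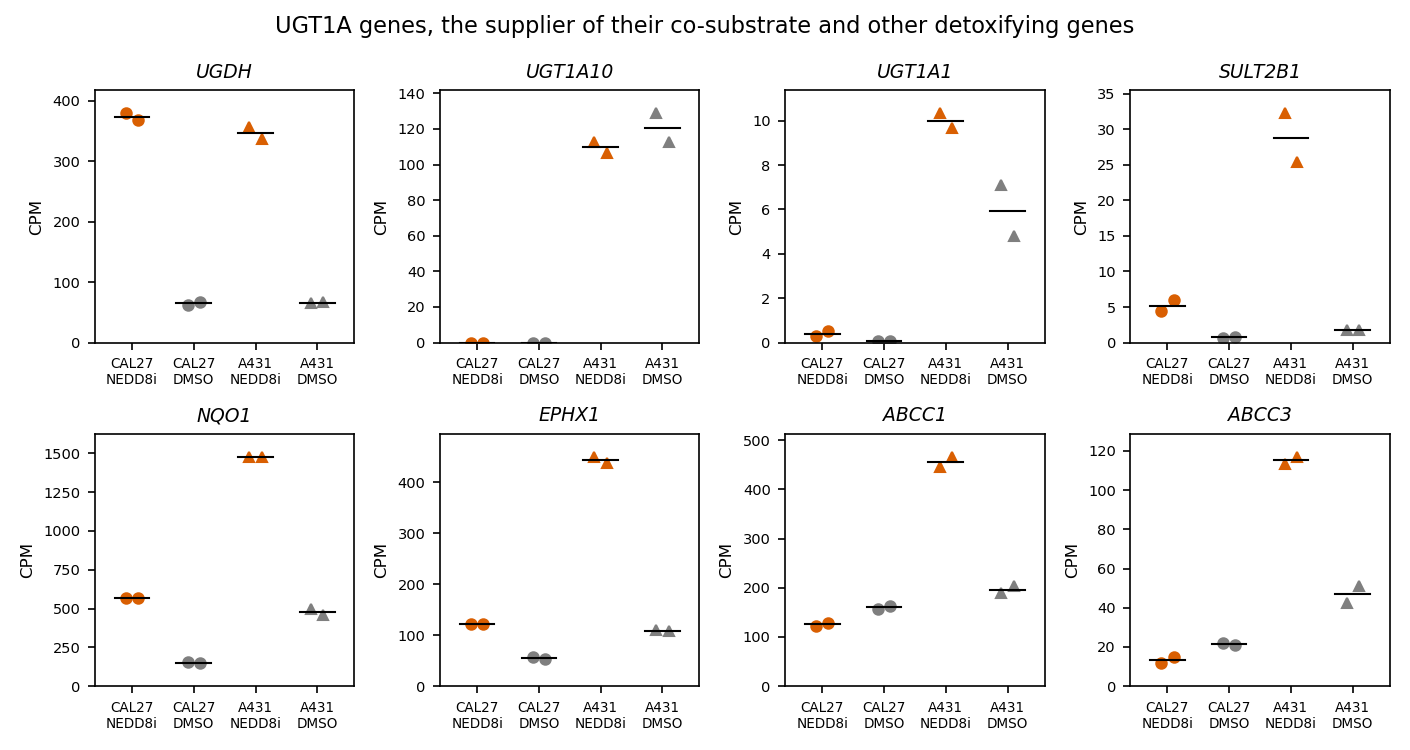
CPM (vertical axes, each from 0) of UGT1A10, UGT1A1 and 6 genes of related steps in each library, NEDD8i in orange and DMSO in grey, CAL27 as circles and A431 as triangles, with lines at the mean of 2. UGDH, NQO1 and EPHX1 are higher with NEDD8i in both lines, ABCC1 and ABCC3 are lower with it in CAL27 and higher with it in A431, and UGT1A10 is at 0 in CAL27.

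Under DMSO alone the lines differed in most of these enzymes, and more of them were lower in CAL27 than in A431. Of the 37 tested genes 7 were higher and 25 lower in CAL27, a called share of 32 of 37 where 58.9% of all genes tested were called, 29.9% higher and 29% lower. The median log2 difference of the 37, CAL27 over A431, was -1.33, beside 0.05 over all genes tested. UGT1A7, UGT1A8 and UGT1A10 had 0 counts in every CAL27 library, and UGT2B7 and ALDH8A1 had 0 in every A431 library. These genes passed the low-count filter through 1 line alone and so had to differ. UGT1A3, ALDH1L1 and GSTA4, with 4, 18 and 34 counts over the 4 CAL27 libraries, also passed it through A431 alone. All of these genes stand among the 32 called, so that share and the median are partly fixed by the filter. The same DMSO libraries served in the comparisons with NEDD8i.

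UGT1A10 had 0 counts in both CAL27 DMSO libraries and 7406 and 5808 in the A431 ones. Against a floor of 3 counts over both libraries, itself too low, it was 4846-fold lower in CAL27. The summed UGT1A counts were 24 and 18 in CAL27 and 8727 and 6913 in A431 (log2 -8.66 ± 0.13, edgeR adjusted p = 3.15e-18). ALDH1A1 had 0.185 and 0.121 CPM in CAL27, against 163 and 159.9 CPM in A431, a log2 difference of -10.05 ± 0.14. GSTA4 held 2 counts in CAL27 and 1640 in A431, a ratio of 0.00111 with a 95% exact binomial interval of 0.000134 to 0.00401.

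Several genes that NEDD8i changed in A431 stood far lower in CAL27 under DMSO. ALDH3A1 had 14.1 and 13.1 CPM in CAL27 and 196 and 199 CPM in A431 (log2 -3.86 ± 0.06), and ALDH1A3 14.4 and 12.1 CPM and 354 and 340.3 CPM (log2 -4.72 ± 0.08). GSTM1 differed by -2.69 ± 0.08, GSTM4 by -2.23 ± 0.13 and GSTO2 by -4.11 ± 0.17. In each of these 5 genes both CAL27 libraries lay below both A431 libraries, which follows from differences of this size and adds no support. The share of all genes without overlap was not counted. Further genes lower in CAL27 by at least 2-fold were GSTT2B (-2.73), MGST2 (-1.33), ALDH1L1 (-4.51), ALDH1L2 (-1.33), ALDH3B1 (-1.83), ALDH6A1 (-1.38), UGT1A1 (-6.44) and UGT1A6 (-5.91). GSTT2B stood at -3.33 without CAL27 DMSO replicate 2. UGT1A3 rested on 2 counts in CAL27 and 75 in A431, a ratio of 0.0242 with an interval of 0.00288 to 0.0907. Against the same floor UGT1A8 was 17.6-fold and UGT1A7 6.60-fold lower in CAL27, where both had 0 counts. The UGT1A7 call was lost in 5 of 8 fits that left out a library.

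The genes higher in CAL27 were fewer. GSTM3 had 12.7 and 11.9 CPM in CAL27 and 5.27 and 3.22 CPM in A431 (log2 1.52 ± 0.17), opposite in direction to GSTM1 and GSTM4 of the same group of genes. ALDH3B2 had 13.4 and 14.1 CPM in CAL27 and 5.80 and 4.27 CPM in A431 (log2 1.45 ± 0.20), opposite to ALDH3B1. Smaller differences in the same direction were 0.39 ± 0.04 for GSTP1, 0.42 ± 0.05 for ALDH18A1 and 0.29 ± 0.09 for ALDH1B1, the last lost without A431 DMSO replicate 2 (0.19) or CAL27 DMSO replicate 2 (0.23). UGT2B7, which conjugates steroids and morphine, had 36 and 12 counts in CAL27 and 0 in A431, and ALDH8A1 had 2 and 10 counts and 0. Against the same floor of 3 counts they were 14.5-fold and 3.64-fold higher in CAL27. Leaving out a library ended the UGT2B7 call in 3 of 8 fits and the ALDH8A1 call in 5 of 8, and the UGT2B7 call was also lost under DESeq2 (adjusted p = 0.21). GSTK1, GSTM2, GSTZ1, ALDH4A1 and ALDH7A1 were not called in the fit of all 8 libraries, but ALDH4A1 was under 4 alternatives and ALDH7A1 without CAL27 DMSO replicate 1.

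**Figure D5:**
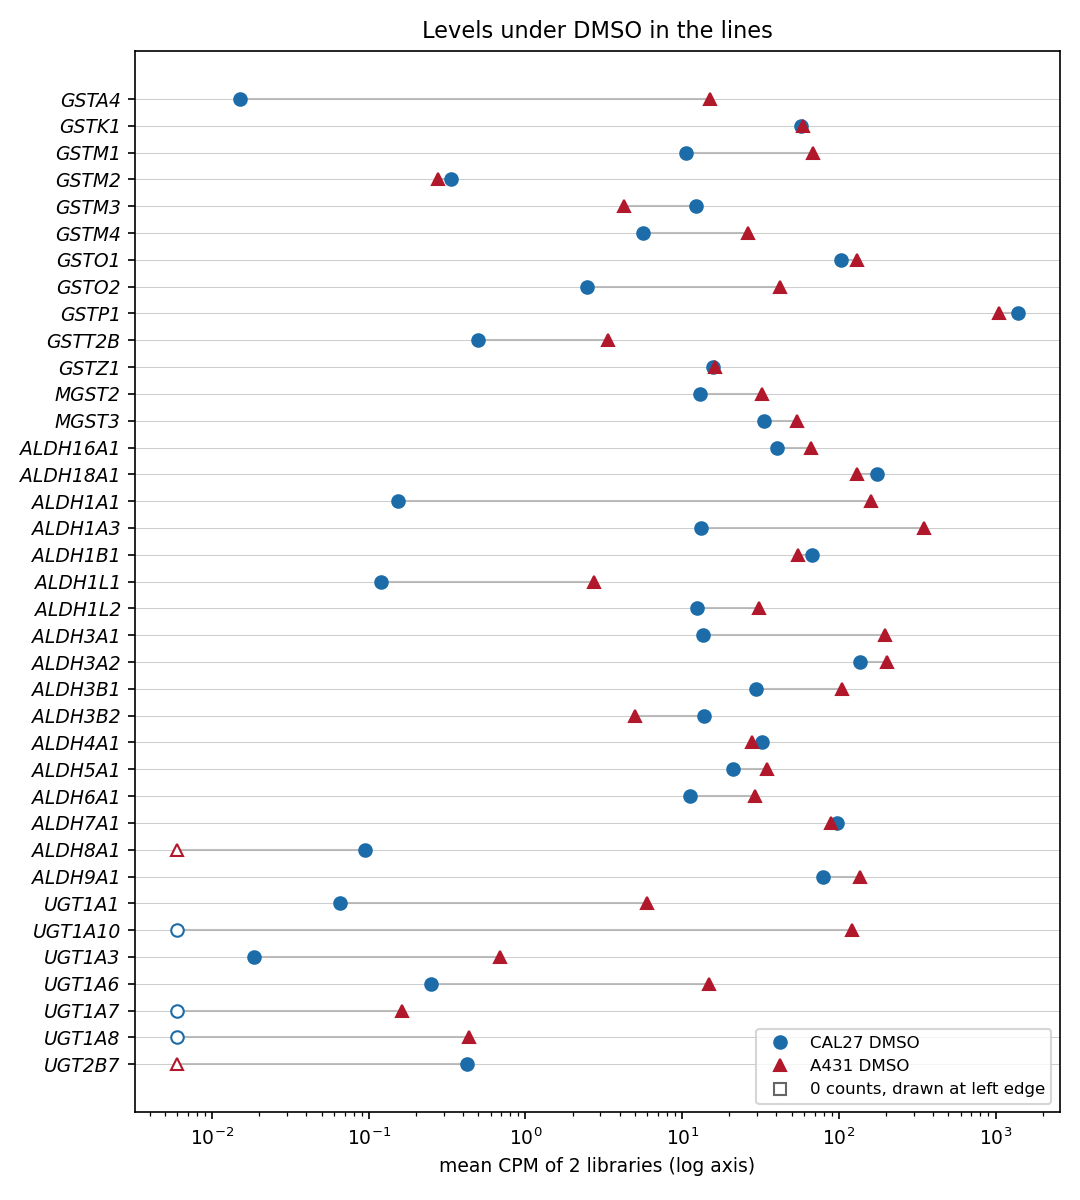
Mean CPM of 2 DMSO libraries (horizontal log axis) of each of the 37 tested genes in CAL27 (blue circles) and A431 (red triangles), joined by a line, with open symbols at the left edge for groups with 0 counts. UGT1A10, ALDH1A1 and GSTA4 show the widest gaps with CAL27 lower, while GSTM3 and ALDH3B2 are higher in CAL27.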

How the data were processed

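The members follow from a rule on gene symbols. The rule, the related lists and the tests were chosen with earlier results of these data known. Libraries from the 2 carcinoma lines were built, per the labels' protocols, with QuantSeq FWD, a poly(A)-primed kit that reads 3′ ends. The submitters' processing notes name STAR and GRCh38, with no STAR version in the sources used. The authors' deposited files hold counts per gene, made with featureCounts 2.0.8 over basic GENCODE 39 exons without regard to strand, per the file headers. Each mate of a pair counted once, and 70.2% to 76.7% of gene counts from 1 to 40 were even, so counting intervals are too narrow and floors of 3 counts too low. Under the options in the headers, reads matching several genes or places were dropped. DESeq2 is also in those notes, and no result of the authors from it was used.

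Of 61533 identifiers 61369 had a symbol, and 1196 that shared a symbol with one at least as well counted were listed by identifier. Tests used edgeR 4.0.16 in R 4.3.3 (quasi-likelihood, TMM, filterByExpr, a mean for each of 4 groups over all 8 libraries, 4 residual degrees of freedom), with Benjamini-Hochberg adjustment over 18738 genes and calls under 0.05. The common biological coefficient of variation was 0.0852. Standard errors are the absolute log2 change over the square root of F. The script was tested on simulated data. Chi-square over degrees of freedom between replicates was 6.30 to 13.2. Sampling noise alone gives 1 where each fragment is counted once, and more here, where mates were each counted. Values per library are given for tested members with a called 2-fold change in a line, a called difference of at least 1 on the log2 scale, or a group mean of at least 20 CPM. Alternatives were RLE size factors, DESeq2 1.42.0, other filters, a replicate block, only the libraries compared, each library left out, and UGT1A counts summed.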

Additional observations from a re-analysis of the deposited data

Results flagged for a closer look

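For 16 genes the response to NEDD8i in CAL27 minus that in A431 passed the edgeR quasi-likelihood test of the difference itself, over all genes tested. The values below are log2 differences, negative where NEDD8i lowered the gene more, or raised it less, in CAL27 than in A431.

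Negative differences were -3.29 for ALDH3B2, -2.17 for GSTO2, -1.81 for ALDH1L2, -1.51 for ALDH3A1, -1.50 for GSTM1, -1.46 for GSTM4, -1.11 for ALDH5A1, -1.04 for ALDH3B1, -0.97 for ALDH4A1, -0.70 for ALDH16A1 and -0.40 for ALDH18A1. Positive differences were 3.20 for GSTA4, 2.22 for ALDH1A1, 1.84 for UGT1A1, 0.61 for MGST3 and 0.38 for ALDH3A2. Those of GSTA4, ALDH1A1 and UGT1A1 rest on at most 42 counts in any CAL27 library, and GSTO2 had 9 and 25 counts with NEDD8i in CAL27. The difference of GSTA4 became 6.23 without CAL27 DMSO replicate 2, 2.43 without CAL27 DMSO replicate 1 (edgeR adjusted p = 0.0451) and 2.44 without CAL27 NEDD8i replicate 1 (edgeR adjusted p = 0.0449). That of GSTO2 became -2.997 without CAL27 NEDD8i replicate 2, and that of UGT1A1 was lost in 4 of 8 fits that left out a library, at 1.28 to 2.10. In groups of 2 no library could be tested as standing apart.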

How the results depend on the processing

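The count of called genes among those tested stayed within 1.5 times of its value in all settings run. Over the fits that left out a library it ranged from 22 to 28 in CAL27 (27 with all libraries), 20 to 23 in A431 (22), 15 to 18 for the difference (16) and 29 to 32 for CAL27 against A431 under DMSO (32). With the replicate number as a block the counts were 26, 21, 17 and 31. The labels do not say that equal numbers pair libraries. Deviations of same-numbered libraries correlated across all genes at -0.0247 in CAL27 and 0.0003 in A431, and over 9062 genes at 10 CPM or more at 0.0161 and 0.1034. Of 2640 recomputed values, 17 changed sign with a library left out and 2 under other settings, and none of these was called with all libraries. The GSTP1 difference was 0.0143 under RLE and 0.0144 under DESeq2. Leaving out libraries gave -0.0577 to 0.0342 for it, -0.163 to 0.164 for ALDH6A1, -0.186 to 0.0901 for ALDH1A3, -0.495 to 0.224 for GSTM3 and -0.207 to 0.0408 for MGST2 (differences), -0.00890 to 0.0499 for ALDH18A1 in CAL27, -0.232 to 0.229 for ALDH3B2 in A431, and -0.0951 to 0.0301 for GSTK1 and -0.196 to 0.938 for GSTM2 between the lines. The cause was not tested. Under the block ALDH8A1 in CAL27 (0.0577) and between the lines (0.0513), GSTM2 (0.0583) and UGT3A2 (0.0741) in A431 and ADH1C in CAL27 (0.0549) missed an edgeR adjusted p of 0.05. Where a group of the fit kept 1 library, it was taken to vary like the other groups. The filter at 1 CPM left fewer low genes in the test. Depth limits UGT1A1, GSTA4, ALDH1A1, ALDH8A1 and, with NEDD8i, GSTO2 in CAL27, and GSTM2 in both lines.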

Other observations

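Genes of retinoid handling, which act before and after the retinal-oxidising ALDH1A enzymes, were called in both directions under NEDD8i. Of 15 tested from a list of 18, 7 rose and 7 fell in CAL27 and 5 rose and 7 fell in A431 (medians -0.26 and -0.19). Of all genes tested 23.2% were called higher and 26.4% lower in CAL27, and 22.5% and 21.1% in A431. CYP26B1, which degrades retinoic acid, rose by 1.23 ± 0.19 in CAL27 and 1.99 ± 0.15 in A431. Its relative CYP26A1 fell in A431 to 0.634 and 0.692 CPM with NEDD8i, against 9.07 and 7.91 CPM with DMSO. STRA6, which takes up retinol, fell by 2.19 ± 0.16 and 1.61 ± 0.09, and the retinoid receptor RXRA by 1.73 ± 0.05 and 0.99 ± 0.05. CRABP2, which carries retinoic acid to its receptor, fell in A431 to 109 and 103 CPM with NEDD8i, against 241 and 239.9 CPM with DMSO, and by 0.29 ± 0.09 in CAL27, a call lost without CAL27 DMSO replicate 2 (-0.10) and with only the 4 CAL27 libraries (-0.25). DHRS9 rose by 0.45 ± 0.11 in CAL27, a call lost without CAL27 DMSO replicate 1 (0.30), and fell by 1.40 ± 0.10 in A431. RARB rose by 1.66 ± 0.18 in CAL27 and 0.77 ± 0.16 in A431, and RDH11 by 0.34 ± 0.05 and 1.06 ± 0.06. In CAL27 DHRS3 fell by 1.12 ± 0.07 and LRAT rose by 1.68 ± 0.43, while their A431 changes, -0.05 ± 0.06 and -0.51 ± 0.60, did not pass.

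Relatives that the symbol rule leaves out included ALDH2, the mitochondrial acetaldehyde enzyme, which rose by 0.27 ± 0.07 in CAL27 and 0.60 ± 0.07 in A431 and is named here after its values were seen. Of 9 tested from 13 listed, 2 rose and 4 fell in CAL27 and 2 rose and 2 fell in A431 (medians -0.11 and -0.11), beside the same shares of all genes. PTGES, the prostaglandin E synthase of the same superfamily as MGST, fell to 10.3 and 13.8 CPM with NEDD8i, against 85.9 and 92.4 CPM with DMSO in CAL27, and to 150.5 and 141 CPM with NEDD8i, against 317 and 302 CPM with DMSO in A431. LTC4S, the leukotriene C4 synthase, was called lower in CAL27 at under 1 CPM, a call lost without CAL27 DMSO replicate 1 (-2.86) or CAL27 NEDD8i replicate 2 (-3.88). LTC4S passed the low-count filter only through DMSO libraries, where it is higher, so the filter favoured a fall. It is among the 4 counted as falling in CAL27. UGT3A2 was called lower in A431 on 0 counts with NEDD8i and 28 with DMSO, 8.61-fold lower against a floor of 3 counts. That call was lost in 7 of 8 fits that left out a library. UGT3A2 had counts only in the A431 DMSO libraries and passed the low-count filter through them alone, so its change had to be a fall. It is among the 2 counted as falling in A431.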
